A study of Mus musculus with 9 samples.

Results

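Expression of the amino acid transporter genes of the Slc1, Slc3, Slc6, Slc7, Slc36, Slc38 and Slc43 families and of the Serinc genes was examined in BV2 cells, an immortalized mouse microglial line. The genes were chosen by a rule on their names, written when earlier results of these data were known, which gave 64 of the 40993 genes in the deposited table. Of these 64 genes, 29 averaged 1 FPKM or more over the 9 libraries and were tested, and 35 lay below it. FPKM divides the fragments of a gene by its transcript length and by the mapped fragments of the library, so levels of different genes can be compared with each other. The table gives no row named Slc7a5, which is not analysed here, and a name with a further letter after its number lies outside the rule.

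The study sequenced RNA in 3 groups of 3 libraries each. The control cells were non-treated, and the treated cells were exposed for 12 h to MNPs@SiO2(RITC) at either 10 or 100 µg/ml. MNPs@SiO2(RITC) are particles with a cobalt ferrite core and a silica shell that carries the dye rhodamine B isothiocyanate. The labels do not say whether the libraries of a group came from separate cultures, so p-values measure the spread between these libraries, which may be technical.

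As background, the Slc1, Slc6, Slc7, Slc36, Slc38 and Slc43 families move amino acids and related small molecules such as taurine, creatine and betaine across membranes, some by exchange of one amino acid for another and some with sodium or protons. Several Slc7 proteins reach the cell surface only with a heavy chain of the Slc3 family, of which Slc3a2 (CD98) is the common one. Microglia take up arginine, cystine and glutamine through carriers of these families. Others of them move glycine and serine, and glycine and the D form of serine act on NMDA receptors of neurons. Serinc proteins are membrane proteins with many transmembrane segments that were named for a role in bringing serine into lipids, and Serinc3 is known to lower the infectivity of retroviruses.

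Depth was estimated from the steps between low FPKM values at 12.0 to 15.0 M fragments a library, and the members held 0.259% to 0.329% of the summed FPKM of a library. Of 11 microglia and macrophage markers, 10 were in the table and 8 had at least 1 FPKM, among them Tyrobp, Spi1, Csf1r and Trem2. Of the homeostatic microglia markers, P2ry12 and Cx3cr1 were near 0 and Tmem119 averaged 2.15 FPKM. The marker lists of neurons, astrocytes, oligodendrocytes and fibroblasts each summed to at most 1.44 FPKM in any library. Of 5 endothelial markers, Cldn5 was at 0, and the summed 61.4 to 74.96 FPKM came almost wholly from Kdr. Replicate 1 at 100 µg/ml stood apart from the other libraries. Its median deviation from its group mean was 0.123 on the log2(FPKM + 1) scale over all tested genes, against 0.0435 to 0.0860 in the other 8 libraries. Fold changes of members that moved by over 1.5 times without it are given with and without it. Those of genes in other lists are given with it only.

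Expression was concentrated in a few members. The 6 members above 100 FPKM, namely Slc1a5, Serinc3, Slc6a8, Slc38a2, Slc6a6 and Slc3a2, made up 55.8% of the summed FPKM of all members. Slc1a5 (ASCT2), an exchanger of glutamine and other neutral amino acids, was the highest with a mean of 172 FPKM (SD 3.89 over the 9 libraries). It was followed by Serinc3 at 168 FPKM, the creatine transporter Slc6a8 at 141 FPKM, the glutamine and alanine transporter Slc38a2 (SNAT2) at 139 FPKM, the taurine transporter Slc6a6 at 121 FPKM and the heavy chain Slc3a2 at 103 FPKM. A further 16 members lay between 10 and 100 FPKM and 7 between 1 and 10 FPKM. Most neighbours in this order overlapped in their libraries. All 9 libraries of the higher gene lay above all 9 of the next one for only 4 pairs of neighbours, which were Slc38a2 and Slc6a6, Slc3a2 and Serinc1, Slc36a4 and Slc7a11, and Slc38a9 and Slc7a7. The lowest of the 29 genes were Slc7a7 at 1.83 FPKM, Slc38a4 at 1.52 FPKM and Slc36a2 at 1.40 FPKM.

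**Figure D1:**
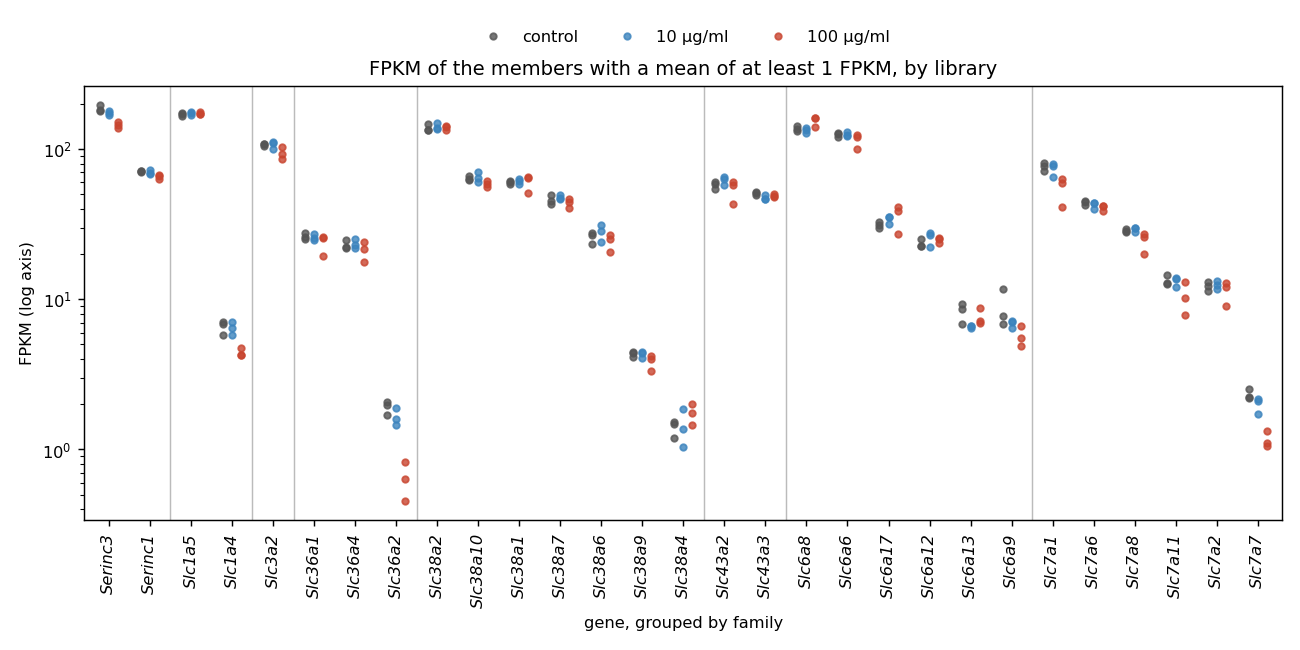
FPKM in each of the 9 libraries (log axis) for the 29 tested members, grouped by family and, within a family, ordered by mean level. Points are grey for control libraries, blue for those at 10 µg/ml and red for those at 100 µg/ml. Levels ran from 172 FPKM for Slc1a5 to 1.40 FPKM for Slc36a2. The 3 libraries at 100 µg/ml lay below the others for Serinc1, Serinc3, Slc1a4, Slc36a2, Slc7a1, Slc7a7 and Slc7a8. Of all tested genes, 11.4% lay below all control libraries at this dose and 9.99% below all libraries at 10 µg/ml. The share of all genes below both was not counted.

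Within each family 1 gene held a large share of the expression. Slc3a2 made up 99.9% of the Slc3 family, whose other member Slc3a1 had a mean of 0.135 FPKM, and Slc1a5 made up 96.7% of the Slc1 family. Serinc3 held 70.8% of the Serinc family, Slc43a2 54.1% of the Slc43 family and Slc36a1 51.3% of the Slc36 family. The Slc6, Slc7 and Slc38 families were more evenly divided, with 42.0% for Slc6a8, 41.4% for the arginine transporter Slc7a1 (CAT1) and 41.1% for Slc38a2.

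Of the 35 members below 1 FPKM, 18 were listed at 0 in every library. Slc6 had 12 of the 35 genes, Slc7 had 8, Slc1 had 5, Slc38 had 4, Serinc had 3, and Slc3, Slc36 and Slc43 had 1 each. Only Slc7a15 and Serinc4 had a mean of at least 0.3 FPKM, with 0.565 and 0.433 FPKM, and their libraries overlapped between all groups. Serinc2 had 0.0650, 0.219 and 0.283 FPKM in control cells, 0.120, 0.0406 and 0.0637 FPKM at 10 µg/ml, and 0, 0.0674 and 0.125 FPKM at 100 µg/ml. These values correspond to an estimated 4.79, 1.89 and 1.56 fragments a library, so a difference was not detectable at this depth. Slc1a2 (GLT-1), the main glutamate transporter of astrocytes, was singled out after its values were seen. It had 0.221, 0.184 and 0.228 FPKM in control cells, 0.0353, 0.142 and 0.0489 FPKM at 10 µg/ml, and 0.0225, 0 and 0.0789 FPKM at 100 µg/ml. Every control library lay above every treated library, at an estimated 32.4 fragments a library in control cells and 5.41 at 100 µg/ml. Such estimates assume the longest annotated transcript of a gene, which has 11595 bases for Slc1a2 and 1881 for Serinc2. If a shorter transcript was expressed, the fragments were fewer. Slc6a19, a carrier of neutral amino acids singled out in the same way, went in the other direction. It had 0.0492, 0.0444 and 0.0219 FPKM in control cells, 0.219, 0.0657 and 0.128 FPKM at 10 µg/ml, and 0.0766, 0.0735 and 0.111 FPKM at 100 µg/ml, an estimated 2.13, 7.75 and 4.92 fragments a library, and every treated library lay above every control library. Both genes were picked from the 17 members below 1 FPKM that were above 0 in some library. How often low genes separate in this way was not counted. The fragments of Slc6a19 are nearly as few as those of Serinc2, so the same limit on detection holds. No fold change is given for genes this low.

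The comparison of 100 µg/ml with control cells asked which transporters differed at the higher dose. Slc36a2, Serinc3, Slc7a7 and Slc1a4 fell, with mean FPKM lower by 66.7%, 21.7%, 50% and 32.4%, and no member rose. The mean of Slc36a2 at 100 µg/ml lay below the 1 FPKM filter, which this gene passed through the other groups. These are 4 of 29 members (13.8%) past an adjusted p of 0.05 from limma, against 2.11% of the 11161 genes tested. Slc36a2 counts among them. The members were chosen with earlier results of these data known, so the shares in this paragraph describe the list and do not test it. The log2 fold change was below 0 for 24 of the 29 members, against 50.4% of all genes, and its median was -0.12, against -0.00 over all genes. Without replicate 1 at 100 µg/ml it was below 0 for 19 of 29, with a median of -0.06, against 0.00 over all genes. At an unadjusted p under 0.05, 10 members were lower, against 9.69% of all genes, and 1 was higher, against 9.67%. All 3 libraries at 100 µg/ml lay below all 3 control libraries for 11 members (all genes 11.4%) and above them for 0 members (all genes 12.5%). With an unadjusted p under 0.05 and a change of at least 1.5-fold in mean FPKM, the members counted were Slc36a2, Slc6a9 and Slc7a7, which is 10.3% of the 29 against 2.40% of all genes. In a fit of just the 6 libraries compared, 0 members passed, with adjusted p from 0.0730 to 0.105 for the same 4 genes. In RNA from whole cultures, fewer cells that express a gene and less RNA of it per cell cannot be told apart. The 8 microglia and macrophage markers also had log2 fold changes below 0 (median -0.18), and 0 of them passed the adjusted threshold. Their sum ran from 760 to 859 FPKM in control cells and from 703 to 782 FPKM at 100 µg/ml, and its part in the members' values was not tested.

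**Figure D2:**
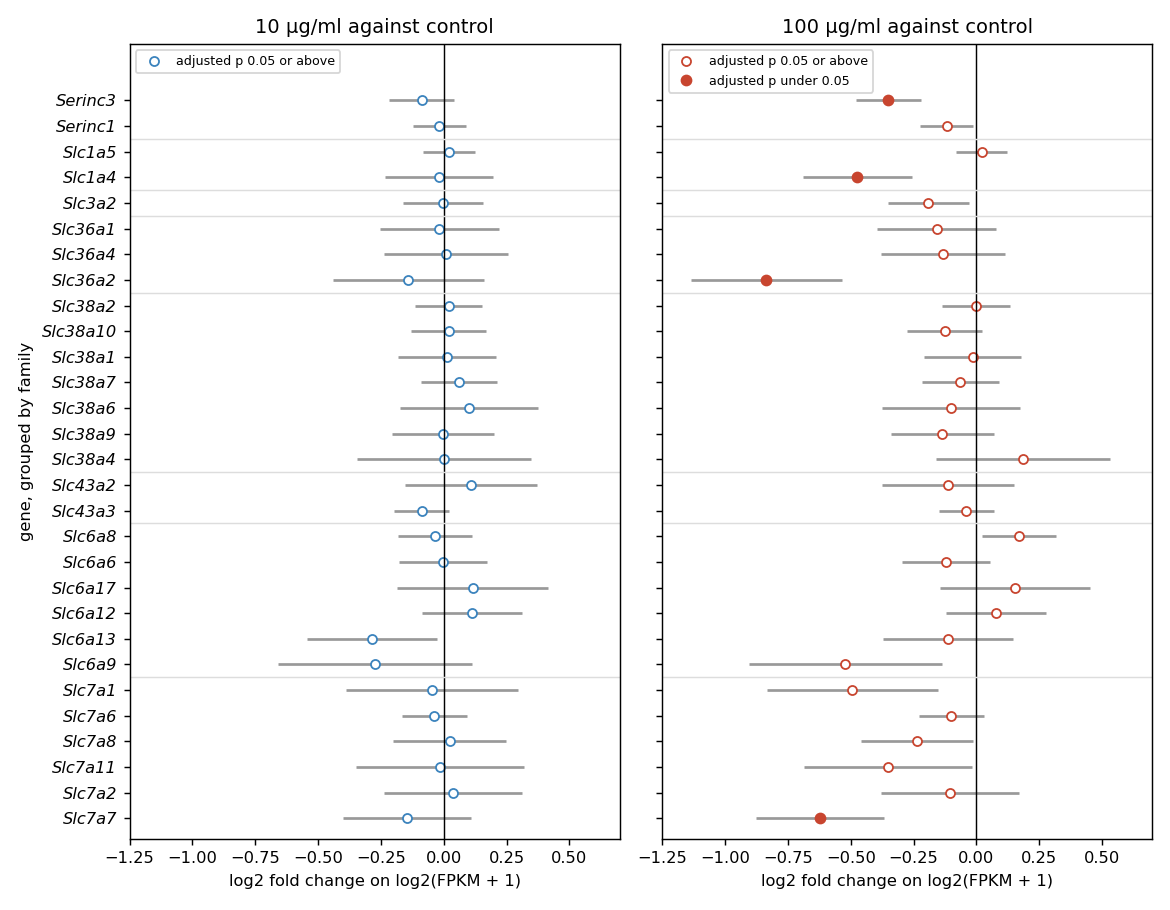
Log2 fold change on the log2(FPKM + 1) scale of the 29 tested members at 10 µg/ml (left) and 100 µg/ml (right) against control, with 95% intervals from limma as grey lines. Filled points have an adjusted p under 0.05. At 100 µg/ml 24 of 29 points lie below 0 and 4 are filled, and at 10 µg/ml 16 lie below 0 and none is filled.

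Of the 3 tested Slc36 genes, which encode carriers of small amino acids such as proline, Slc36a2 fell and the more abundant Slc36a1 and Slc36a4 did not pass the test. Slc36a2 (ENSMUSG00000020264, chromosome 11 of GRCm38 from 55158470 to 55185077) encodes a proton-coupled transporter of glycine and proline. Slc36a2 had 1.71, 2.07 and 1.98 FPKM in control cells, 1.59, 1.46 and 1.90 FPKM at 10 µg/ml, and 0.638, 0.826 and 0.456 FPKM at 100 µg/ml. Every library at 100 µg/ml lay below every other library, while those at 10 µg/ml overlapped the control range. Against control, the higher dose gave a log2 fold change of -0.84 (standard error, SE, 0.13, limma adjusted p = 0.0188). The pseudocount of 1 shrinks the change of a gene this low, and the value was -1.47 with a pseudocount of 0.1 and -1.61 with 0.01. With single libraries left out the adjusted p lay between 0.0249 and 0.0857, and without control replicate 1, 2 or 3 or replicate 3 at 100 µg/ml it missed the threshold. The mean at 100 µg/ml was 0.640 FPKM, an estimated 20.7 fragments a library, so the gene passed the filter only through the other groups. The neighbouring gene Slc36a1, whose product exports amino acids from lysosomes, lies on chromosome 11 from 55204350 to 55236330 and averaged 26.2 ± 1.16 FPKM (SD, n = 3) in the control libraries and 23.6 ± 3.69 FPKM (SD, n = 3) in those at the higher dose. Slc36a1 had a log2 fold change of -0.16 and Slc36a4 one of -0.14, with adjusted p of 0.455 and 0.543 from limma, and the third gene of the cluster, Slc36a3, had a mean of 0.0866 FPKM.

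Of the neutral amino acid exchangers of the Slc1 family, Slc1a4 fell and Slc1a5 did not pass the test. Slc1a4 (ASCT1, ENSMUSG00000020142, chromosome 11 from 20302180 to 20332713) carries alanine, serine and cysteine. It had 5.82, 7.03 and 6.80 FPKM in control cells, 7.08, 6.45 and 5.80 FPKM at 10 µg/ml, and 4.27, 4.76 and 4.25 FPKM at 100 µg/ml. The libraries at 100 µg/ml lay below all others, and the other groups overlapped. Against control, the higher dose gave a log2 fold change of -0.47 (SE 0.10, limma adjusted p = 0.0418). Its adjusted p was 0.0805 with no filter on low values and 0.0552 with a filter at 5 FPKM, and with any single library left out it lay between 0.0562 and 0.168. The far more abundant Slc1a5 (chromosome 7 from 16781346 to 16798274) averaged 170 ± 4.55 FPKM (SD, n = 3) in the control libraries and 173 ± 3.63 FPKM (SD, n = 3) in those at the higher dose. The log2 fold change of Slc1a5 was 0.02, with a 95% interval from -0.08 to 0.12. The summed FPKM of the family was 177 ± 4.18 (SD, n = 3) without particles and 177 ± 3.88 (SD, n = 3) with 100 µg/ml. The difference between the fold changes of Slc1a4 and Slc1a5 was not tested.

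In the Slc7 family all 6 tested genes had log2 fold changes below 0 at 100 µg/ml, and 1 of them fell past the threshold. Without replicate 1 at 100 µg/ml Slc7a2 was above 0, at 0.04. Slc7a7 (y+LAT1, ENSMUSG00000000958, chromosome 14 from 54369444 to 54409472) exports arginine and lysine in exchange for neutral amino acids. It had 2.24, 2.54 and 2.20 FPKM in control cells, 2.18, 1.73 and 2.11 FPKM at 10 µg/ml, and 1.10, 1.059 and 1.33 FPKM at 100 µg/ml. The 3 groups did not overlap, with control cells highest and 100 µg/ml lowest. Against control, the higher dose gave a log2 fold change of -0.62 (SE 0.11, limma adjusted p = 0.0295), and it was -0.94 with a pseudocount of 0.1 -0.998 with 0.01. With single libraries left out its adjusted p lay between 0.0374 and 0.116, and it passed only without replicate 1 at 100 µg/ml or replicate 1 or 2 at 10 µg/ml. The estimated depth behind Slc7a7 at 100 µg/ml was 35.8 fragments a library.

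The more abundant light chains and cationic carriers did not pass the adjusted threshold. Slc7a1, an arginine importer and the most abundant gene of the family, had 70.9, 76.7 and 80.6 FPKM in control cells, 77.1, 79.6 and 64.8 FPKM at 10 µg/ml, and 41.2, 62.8 and 59.7 FPKM at 100 µg/ml. All its libraries at 100 µg/ml lay below the others, but replicate 1 lay far below the other two. Its log2 fold change was -0.49 (SE 0.15, limma adjusted p = 0.123), and without replicate 1 at 100 µg/ml it was -0.31 (adjusted p = 0.101). Slc7a8 (LAT2), which exchanges neutral amino acids, had 29.4, 28.5 and 28.0 FPKM in control cells and 20.1, 26.0 and 27.0 FPKM at 100 µg/ml. Its log2 fold change of -0.24 (adjusted p = 0.235) became -0.11 without replicate 1. Slc7a11 (xCT), which imports cystine in exchange for glutamate, had 12.6, 12.8 and 14.5 FPKM in control cells and 7.90, 10.2 and 13.1 FPKM at 100 µg/ml. Its libraries at 100 µg/ml reached into the control range, and its log2 fold change of -0.35 (adjusted p = 0.235) became -0.19 without replicate 1. Slc7a6 (y+LAT2) and the arginine transporter Slc7a2 (CAT2) had log2 fold changes of -0.10 and -0.11.

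The heavy chain Slc3a2 (chromosome 19 from 8706882 to 8723369) had 109, 107 and 105 FPKM in control cells, 109.8, 100.5 and 110.7 FPKM at 10 µg/ml, and 102.9, 85.9 and 92.8 FPKM at 100 µg/ml. The libraries at 100 µg/ml lay below the control libraries and overlapped those at 10 µg/ml. Against control, the higher dose gave a log2 fold change of -0.19 (SE 0.07, limma adjusted p = 0.186). Without replicate 1 at 100 µg/ml, which was the highest of the 3 for this gene, it was -0.26 (adjusted p = 0.0443). The summed FPKM of the Slc7 family was 177 ± 6.84 (SD, n = 3) without particles and 118, 155 and 157 in the libraries at 100 µg/ml.

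**Figure D3:**
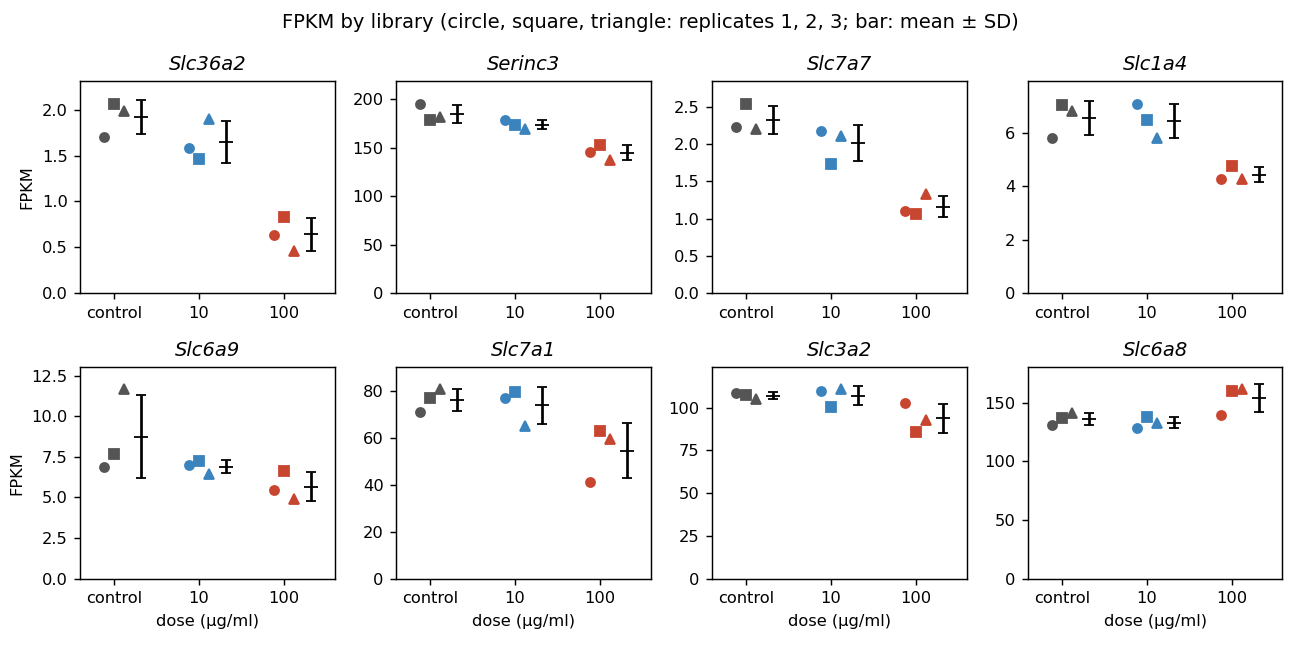
FPKM of Slc36a2, Serinc3, Slc7a7, Slc1a4, Slc6a9, Slc7a1, Slc3a2 and Slc6a8 in each library against the dose, each panel starting at 0. Circles, squares and triangles are replicates 1, 2 and 3, and the black bars are the mean and SD of the 3 libraries of a group. For the 4 genes of the upper row, which passed the adjusted threshold at 100 µg/ml, all 3 libraries at that dose lie below all others.

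Promoter windows are shown for the 3 members whose windows hold the letters TGATGNAA, which is the C/EBP-ATF response element to which ATF4 binds in genes of the amino acid response, since that response is known to act on several of these transporters. The windows are from RefSeq on GRCm38.p6 and were matched by gene symbol for 46 of the 64 members, 21 of them tested. Each run of 280 bases covers 250 bases before and 30 bases after a transcript start on the gene's strand, which is the reverse strand for all 3 genes, and capitals mark the matched letters on either strand.
Slc1a4 (chr11:20332684-20332963): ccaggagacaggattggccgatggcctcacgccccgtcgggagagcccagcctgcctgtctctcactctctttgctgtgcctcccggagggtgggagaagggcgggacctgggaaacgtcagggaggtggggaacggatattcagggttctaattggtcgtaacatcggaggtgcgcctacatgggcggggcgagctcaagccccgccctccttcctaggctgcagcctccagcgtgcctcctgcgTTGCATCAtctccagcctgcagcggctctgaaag
Slc7a11 (chr3:50443584-50443863): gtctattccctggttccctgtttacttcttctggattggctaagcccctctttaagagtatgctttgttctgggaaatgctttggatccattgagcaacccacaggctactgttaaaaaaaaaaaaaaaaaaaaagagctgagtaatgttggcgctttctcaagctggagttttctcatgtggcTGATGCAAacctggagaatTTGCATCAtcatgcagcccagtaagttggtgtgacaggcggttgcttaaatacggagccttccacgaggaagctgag
Slc7a7 (chr14:54417673-54417952): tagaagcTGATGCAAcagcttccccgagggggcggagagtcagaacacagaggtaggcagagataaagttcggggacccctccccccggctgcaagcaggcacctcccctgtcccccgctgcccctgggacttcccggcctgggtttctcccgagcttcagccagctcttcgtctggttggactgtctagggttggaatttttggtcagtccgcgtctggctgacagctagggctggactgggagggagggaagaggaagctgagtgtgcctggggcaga
In Slc1a4 the match spans the start, with its first base 4 bases before it. Slc7a11 holds a match that begins 66 bases before the start and another, on the opposite strand, 47 bases before it. In Slc7a7 the match begins 243 bases before the start shown. A further RefSeq start of this gene has the same match 1 base before it and another 141 bases before it, but the bases after that start were in no GENCODE M21 transcript of the gene. Both starts lie outside the gene as the deposited table places it (chromosome 14 from 54369444 to 54409472), and the window whose start falls at the table's gene end holds no match. Windows of 300 bases, 250 before to 50 after a start, hold the letters in 6.52% of the 46 members against 4.51% of the 27025 genes with a window, and in 14.29% of the 21 tested members against 2.71% of the 7814 tested genes with a window. Both member shares rest on the same 3 genes. They count Slc7a7, although its matches belong to starts outside the gene as tabled. The difference in shares was not tested. Of the other genes described in detail, Serinc3, Slc3a2, Slc6a9 and Slc7a1 had windows without a match. Slc36a2 had no window matched by its symbol, so its promoter was not searched.

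The Slc6 family, which carries neurotransmitters, taurine, creatine and glycine with sodium and chloride, held members on both sides of 0. Slc6a9 (GlyT1, chromosome 4 from 117834506 to 117875198), the glycine transporter that sets glycine near NMDA receptors, had 6.89, 7.68 and 11.6 FPKM in control cells, 7.01, 7.22 and 6.45 FPKM at 10 µg/ml, and 5.49, 6.63 and 4.91 FPKM at 100 µg/ml. The libraries at 100 µg/ml lay below the control libraries, of which replicate 3 lay well above the other two. Its log2 fold change was -0.52 (SE 0.17, limma adjusted p = 0.143), and -0.32 without control replicate 3 (adjusted p = 0.244).

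Slc6a8 (chromosome X from 73673150 to 73682502) had 131, 137 and 142 FPKM in control cells, 129, 138 and 133 FPKM at 10 µg/ml, and 139.9, 159.8 and 161.4 FPKM at 100 µg/ml. Replicate 1 at 100 µg/ml lay within the control range and the other two lay above it. The log2 fold change was 0.17 (SE 0.07, limma adjusted p = 0.206), and 0.23 without replicate 1 at 100 µg/ml (adjusted p = 0.0374). Slc6a17, a carrier of neutral amino acids into synaptic vesicles, likewise had its lowest value at this dose in replicate 1, with 27.3, 40.9 and 38.4 FPKM at 100 µg/ml beside a control mean of 31.4 FPKM (SD 1.40, n = 3). Its log2 fold change was 0.15 (adjusted p = 0.571), and 0.33 without replicate 1 (adjusted p = 0.0333). The taurine transporter Slc6a6 and the neighbouring betaine and GABA transporters Slc6a12 and Slc6a13 had log2 fold changes of -0.12, 0.08 and -0.11, and their libraries overlapped between 100 µg/ml and control.

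The sodium-coupled Slc38 family and the Slc43 family held no gene past the threshold at 100 µg/ml. Slc38a2 averaged 139 ± 7.12 FPKM (SD, n = 3) in the control libraries and 139 ± 4.62 FPKM (SD, n = 3) in those at the higher dose, with a 95% interval of the log2 fold change from -0.14 to 0.13. Slc38a1 (SNAT1), a further glutamine transporter, had an interval from -0.21 to 0.18. Slc38a10 had 61.8, 66.1 and 63.5 FPKM in control cells and 55.5, 61.3 and 58.3 FPKM at 100 µg/ml, without overlap but with an adjusted p of 0.340 from limma. The lysosomal carriers Slc38a7, which exports glutamine, and Slc38a9, which takes part in arginine sensing, had log2 fold changes of -0.06 and -0.14. Slc38a6 and Slc38a4 had values of -0.10 and 0.19 with standard errors of 0.12 and 0.15. Slc43a2 (LAT4), which carries branched-chain amino acids and methionine, had a log2 fold change of -0.11, and Slc43a3, which is known as a purine nucleobase transporter, one of -0.04.

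Both expressed Serinc genes had lower values at 100 µg/ml. Serinc3 (ENSMUSG00000017707, chromosome 2 from 163623272 to 163645131) had 195.3, 178 and 181 FPKM in control cells, 179, 174 and 169.5 FPKM at 10 µg/ml, and 145, 152 and 137 FPKM at 100 µg/ml. The libraries at 100 µg/ml lay below all others, and 1 library at 10 µg/ml reached just into the control range. Its log2 fold change was -0.35 (SE 0.06, limma adjusted p = 0.0198), with a 95% interval from -0.48 to -0.22. Its adjusted p ran from 0.0242 to 0.0840 over the fits without 1 library, and missed the threshold without control replicate 1, 2 or 3 or replicate 3 at 100 µg/ml. Serinc1 had 70.3, 71.5 and 71.2 FPKM in control cells and 66.0, 66.8 and 63.3 FPKM at 100 µg/ml, below every control library, with a log2 fold change of -0.12 (adjusted p = 0.214). The summed FPKM of the family was 257 ± 8.39 (SD, n = 3) without particles, 244 ± 5.60 (SD, n = 3) with 10 µg/ml and 211 ± 9.10 (SD, n = 3) with 100 µg/ml.

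Replicate 1 at 100 µg/ml was low across the members. It was the lowest of the 9 libraries for 16 of 29 members and the highest for 0, whereas over all tested genes it was lowest for 24.67% and highest for 26.83%. The median over members of its log2(FPKM + 1) minus the control mean was -0.29, against -0.06 and -0.04 in replicates 2 and 3. Of the 29 members, 24 lay below the control mean in replicate 1, 20 in replicate 2 and 18 in replicate 3. The same was not counted over all genes. The summed FPKM of all 64 members was 1353 in replicate 1 and between 1487 and 1569 in the other 8 libraries. Slc36a2, Serinc3 and Slc7a7 remained past the threshold without it, with adjusted p from limma between 0.0242 and 0.0374. Slc1a4 had an adjusted p of 0.0562, and Slc3a2, Slc6a8 and Slc6a17 passed, which makes 6 members in all. Over all genes, the fits without 1 library called 31 to 539 genes, against 236 with all 9 libraries. Without replicate 1 at 100 µg/ml, Slc36a1 and Slc36a4 went from -0.16 and -0.14 to -0.03 and -0.02, Slc6a6 and Slc6a13 from -0.12 and -0.11 to -0.03 and -0.20, and Slc43a2 from -0.11 to 0.03. Slc38a1, Slc38a6, Slc38a7 and Slc38a9 went from -0.02, -0.10, -0.06 and -0.14 to 0.09, 0.00, -0.01 and -0.06. Slc7a6 went from -0.10 to -0.06, and Slc38a2 and Slc43a3, both near 0, from -0.00 and -0.04 to 0.02 and -0.06. Leaving out other libraries lowered the count of 4 members to 0 without control replicate 1, 2 or 3 and without replicate 3 at 100 µg/ml, and to 2 without replicate 2 at 100 µg/ml or replicate 3 at 10 µg/ml. In these fits Slc36a2, Serinc3, Slc7a7 and Slc1a4 kept log2 fold changes below 0.

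**Figure D4:**
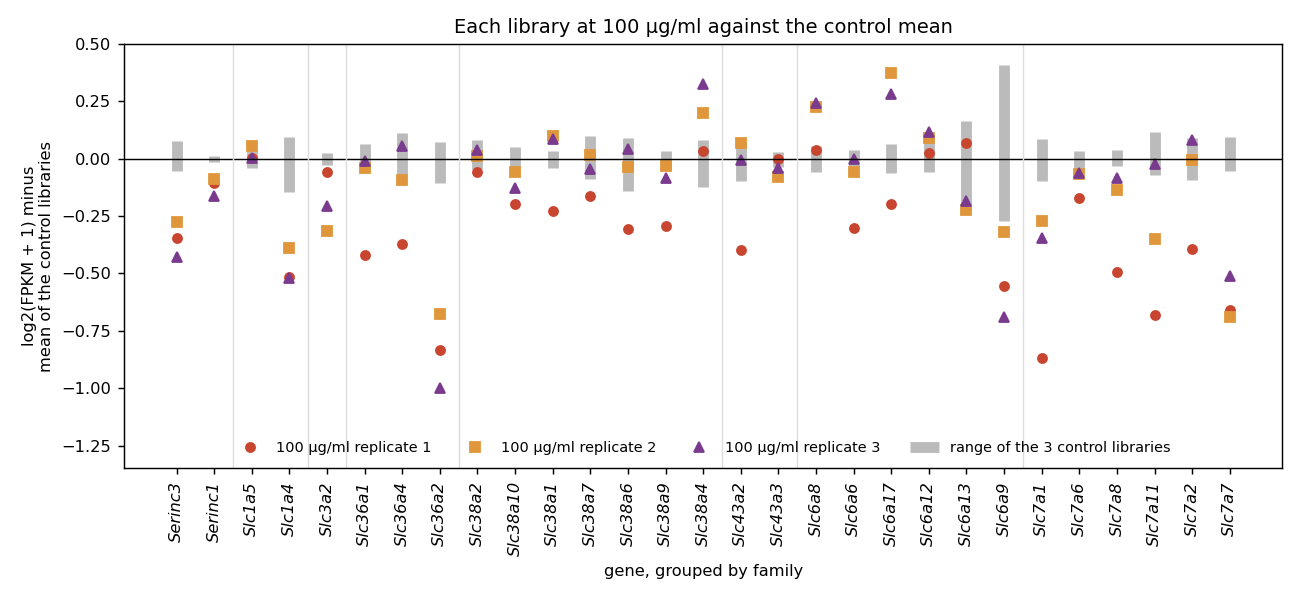
Log2(FPKM + 1) of each library at 100 µg/ml minus the mean of the control libraries for the 29 tested members, grouped by family. Circles, squares and triangles are replicates 1, 2 and 3 at 100 µg/ml, and grey bars span the 3 control libraries. Replicate 1 has a median of -0.29 and lies lowest for many genes of the Slc7, Slc36 and Slc38 families. All 3 replicates lie below the grey bar for 11 of the 29 genes, against 11.4% of all tested genes. Among them are Slc36a2, Serinc3, Slc7a7 and Slc1a4.

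The comparison of 10 µg/ml with control cells shares its control libraries with that of 100 µg/ml. At 10 µg/ml no member passed the adjusted threshold, and 0 of the 11161 genes did (0%). The lowest adjusted p of any member was 1, the log2 fold changes ran from -0.28 to 0.11 with 16 of 29 below 0, and their median was -0.00. At an unadjusted p under 0.05, 1 member was lower, against 1.54% of all genes, and 0 were higher, against 1.74%. That member was the GABA transporter Slc6a13, with 9.33, 8.66 and 6.88 FPKM in control cells, 6.60, 6.67 and 6.47 FPKM at 10 µg/ml, and 8.68, 6.91 and 7.12 FPKM at 100 µg/ml. Its libraries at 10 µg/ml lay below those of both other groups, with a log2 fold change of -0.28 (SE 0.11, unadjusted p = 0.0351 and adjusted p = 1 from limma). Slc7a7 was the other member without overlap, so that 2 of 29 members (6.90%) lay below the control libraries, against 4.61% of all genes. On the log2(FPKM + 1) scale, the 95% interval of 28 of the 29 members lay within a 1.5-fold change in either direction. The exception was Slc6a9, with an interval from -0.66 to 0.11. This scale understates changes of low genes such as Slc36a2, Slc38a4, Slc6a13 and Slc7a7. For these genes the intervals do not exclude a change in FPKM of over 1.5-fold.

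Between 100 and 10 µg/ml, which shares the libraries of each dose with the comparisons of that dose with control, no member passed the adjusted threshold, against 0.851% of all genes. At an unadjusted p under 0.05, 8 members were lower, against 7.80% of all genes, and 1 was higher, against 6.49%. The libraries at 100 µg/ml lay below all those at 10 µg/ml for 8 members (all genes 9.99%), namely Serinc1, Serinc3, Slc1a4, Slc36a2, Slc38a7, Slc7a1, Slc7a7 and Slc7a8. The log2 fold changes were -0.69 for Slc36a2 (adjusted p = 0.0583 from limma), -0.45 for Slc1a4 (0.0787), -0.26 for Serinc3 (0.0863) and -0.48 for Slc7a7 (0.106). Slc36a2 passed with a pseudocount of 0.01 (adjusted p = 0.0456) and in the fit without the trend (adjusted p = 0.0251). Slc6a8 was higher in all 3 libraries at 100 µg/ml, with a log2 fold change of 0.20 (adjusted p = 0.212), and passed without replicate 1 at 100 µg/ml (0.27, adjusted p = 0.0389).

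Other genes of amino acid handling were counted in the same fit. At 100 µg/ml against control, 2.11% of all tested genes passed the adjusted threshold, and at an unadjusted p under 0.05 9.69% were lower and 9.67% higher. Of 23 carriers outside the families above, such as mitochondrial and lysosomal carriers, 14 were tested and 0 passed the adjusted threshold at 100 µg/ml, with 2 lower and 2 higher at an unadjusted p under 0.05 and a median log2 fold change of 0.01. The ends of this list were Ctns, the lysosomal cystine exporter, at -0.29 and Slc25a38, a mitochondrial glycine carrier, at 0.20. The value of Slc25a38 leaned on replicate 1 at 100 µg/ml, with 13.2 FPKM against 9.26 and 10.7 FPKM in replicates 2 and 3. Of 29 genes of lysosomal amino acid sensing and mTORC1, 24 were tested and 2 fell, Sesn1 and Sesn2. The median of the list was 0.00 and its highest value was that of Lamtor3 at 0.15. For Lamtor3 too, replicate 1 at 100 µg/ml was highest, with 34.1 FPKM against 28.4 and 31.4 FPKM in replicates 2 and 3. Of 18 genes of the amino acid response through GCN2 and ATF4, 16 were tested, 2 fell past the adjusted threshold and 0 rose. In this list 9 genes were lower and 0 higher at an unadjusted p under 0.05, and the median log2 fold change was -0.15.

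The genes that fell in these lists were Sesn2, a leucine sensor that stands in both of them, Sesn1, its relative, and Aars, the alanyl-tRNA synthetase. Sesn2 had 9.78, 11.9 and 12.2 FPKM in control cells, 12.7, 11.4 and 11.8 FPKM at 10 µg/ml, and 6.86, 7.44 and 6.72 FPKM at 100 µg/ml. Its libraries at 100 µg/ml lay below all others, and its log2 fold change was -0.62 against control (adjusted p = 0.0142 from limma) and -0.70 against 10 µg/ml (adjusted p = 0.0138). Aars had a log2 fold change of -0.34 (adjusted p = 0.0198) and Sesn1 one of -0.43 (adjusted p = 0.0123). The widest values of the response list that did not pass were those of the stress regulator Nupr1, with -0.74 (adjusted p = 0.0975), and of Cebpb, with 0.38 (adjusted p = 0.296). For Cebpb, replicate 1 at 100 µg/ml had 19.3 FPKM, against 12.6 and 13.2 FPKM in replicates 2 and 3. At 10 µg/ml 0 genes of these lists passed the adjusted threshold.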

How the data were processed

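The 9 libraries of BV2 RNA, 3 per group, were grouped by the treatment in their labels. They came from a stranded kit with oligo(dT) selection. The authors filtered reads by quality, aligned them with TopHat and deposited FPKM values computed with Cufflinks 2.1.1 on Ensembl release 77 (GRCm38), corrected for fragment bias and for reads mapping to several places. No counts are used here.

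Genes were matched by name, and coordinates are those of the deposited table. FPKM was transformed to log2(FPKM + 1), so fold changes of low genes are understated. The 11161 genes that averaged 1 FPKM or more were fitted with limma 3.58.1 in R 4.3.3 as 1 model of 3 groups, using eBayes with its trend and two-sided p-values adjusted over all these genes by Benjamini-Hochberg. Tables were made with Python 3.11.15 and pandas 2.3.3. The procedure was tested on simulated data. Depth was estimated from steps between 3466 low values of 957 genes and is approximate. The depth chosen for each library was the one that brought its values nearest to whole fragments. At these depths 76.1% of the values lay within 0.25 of a whole fragment. The same values set the depth, so this share is no independent check, and the 50% by chance holds only for a depth not chosen this way. Fragments of a gene were estimated from its FPKM, this depth and its longest transcript in GENCODE M21. Every tested member is named, with Serinc2, members below it at 0.3 FPKM or more, and the called, highest and lowest genes of each list. The members and gene lists were chosen with earlier results of these data known. Alternatives were quantile normalization, a minimum mean of 5 FPKM or none, rescaling by median of ratios, pseudocounts of 0.1 and 0.01, eBayes with no trend, a block for the replicate number, a fit of just the 6 libraries compared, and the omission of each library in turn. Cuffdiff was not repeated, because alignments are not analysed here.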

Additional observations from a re-analysis of the deposited data

How the results depend on the processing

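At 100 µg/ml against control, 4 members passed with either other pseudocount, quantile normalization, median-of-ratios rescaling and eBayes without the trend, and 3 with no filter on low values. The count was 1 with a mean of at least 5 FPKM, where Slc36a2 and Slc7a7 were not tested and Slc1a4 lost its call. It was 0 with only the 6 libraries compared, a fit whose spread does not draw on the libraries at 10 µg/ml. It was 0 to 6 with single libraries left out. Over all genes, 236 were called, 22 with only the 6 libraries compared, and 31 to 539 with single libraries left out. At 10 µg/ml against control, 0 genes were called, 4 with no filter and 1 with only 6 libraries, and 0 to 2 with single libraries left out, and 0 members in each of these fits. At 100 against 10 µg/ml, 95 genes were called, 6 with only 6 libraries and 8 to 191 with single libraries left out. Members there numbered 0, 1 with a pseudocount of 0.01, 1 with eBayes without the trend, and 0 to 1 with single libraries left out. The cause of these differences was not tested.

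The labels do not say whether replicate numbers pair the libraries, and the main fit used no pairing. Same-numbered libraries had deviations correlated by -0.09 to 0.15, and 1 of 9 pairs was over 0.1. Differently numbered libraries had correlations of -0.17 to 0.14, and 2 of 18 pairs were over 0.1. With the replicate block, 1 member (Serinc3) and 106 genes were called at 100 µg/ml, 0 genes at 10 µg/ml, and 0 members and 13 genes between the doses.

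Over 43 fold changes of single members, 716 alternative values kept direction and side of the threshold, 32 lost the call, 6 gained it and 12 changed sign. The changes of sign were all near 0. At 100 µg/ml Slc38a2 was 0.0118 with quantile normalization. With single libraries left out, Slc38a2 ran from -0.0237 to 0.0395, Slc1a5 from -0.00105 to 0.0367, Slc38a1 from -0.0726 to 0.0913, Slc38a6 from -0.173 to 0.00269, Slc43a2 from -0.203 to 0.0298 and Slc7a2 from -0.1997 to 0.0384, and at 10 µg/ml Slc1a4 from -0.0917 to 0.0434. With single libraries left out, adjusted p at 100 µg/ml ran from 0.0242 to 0.0840 for Serinc3, 0.0249 to 0.0857 for Slc36a2, 0.0374 to 0.116 for Slc7a7 and 0.0562 to 0.168 for Slc1a4. Slc36a2 and Slc7a7 rest on few fragments at 100 µg/ml, which limits the precision of their fold changes.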
